A study of Mus musculus with 2 samples.

Results

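Cathepsins and legumain are the proteases that break down proteins inside lysosomes. Epididymal adipose tissue macrophages (ATMs) of lean mice carried transcripts of 9 of the 10 genes examined here at a high level, and the mix of these transcripts differed between kinds of ATMs. *Ctsb*, *Lgmn*, *Ctsl*, *Ctsc* and *Ctsa* were higher in cells with *Lyve1* or *Timd4* than in cells rich in *Lyz1*, by 2.24-fold to 4.43-fold in either library. *Ctss* and *Ctsz* were lower in them, by 0.56 to 0.95 on the log2 scale in CD. Over all cells kept, *Ctsd* was the one member at least 1.5-fold higher in the library of mice fed a high-fat diet (HFD) than in that of mice on control diet (CD). Within kinds of ATMs set by marker genes, *Ctsd* did not pass in all, and other members passed in some. The members were all genes with the symbols *Ctsa*, *Ctsb*, *Ctsc*, *Ctsd*, *Ctsh*, *Ctsk*, *Ctsl*, *Ctss*, *Ctsz* and *Lgmn*, 10 of the 31053 genes in the files.

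The cells were sorted as CD45+Lin-Ly6Clow/-F4/80+ macrophages from male C57/BL6 mice (C57BL/6JOlaHsd in the study's methods) of 8 to 12 weeks, and the labels name no transgene or deletion. The CD group was kept on a diet with 11% of its energy from fat, and the HFD group was fed overnight on one with 58%. Cells of 3 mice were pooled into 1 library for each diet, so there was no replicate, mice could not be told apart, and no p-value was computed. Differences between the libraries can come from the diet, from these mice or from the handling of each pool, which cannot be told apart.

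Cathepsins are made as inactive precursors, are carried to the lysosome by mannose 6-phosphate receptors, and are activated there by cleavage. Most belong to the papain-like cysteine proteases. Cathepsin D is an aspartic protease, cathepsin A a serine carboxypeptidase, and legumain a cysteine protease of another clan that cuts after asparagine and also processes other cathepsins. In macrophages these enzymes degrade engulfed cells, lipoproteins and antigens, and cathepsin S trims the invariant chain of MHC class II molecules. Cystatins and stefins inhibit the cysteine cathepsins.

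Gene positions are those of the GENCODE annotation of GRCm38, where each of the 10 is a protein-coding gene. *Ctsk* at chr3:95499256-95509362 and *Ctss* at chr3:95526786-95556403 lie on the same strand with 17423 bases between them. The other cysteine cathepsins were *Ctsb* at chr14:63122462-63145923, *Ctsc* at chr7:88278085-88310888, *Ctsh* at chr9:90054152-90076089, *Ctsl* at chr13:64359337-64370890 and *Ctsz* at chr2:174427493-174439039. *Ctsd* lies at chr7:142375911-142388038, *Ctsa* at chr2:164832873-164841032 and *Lgmn* at chr12:102394084-102439813.

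The factors TFEB, TFE3 and MITF bind the E-box CACGTG in promoters of lysosomal genes, so the members' promoters were searched for it. RefSeq windows of 250 bases before to 50 bases after a start on GRCm38.p6 were matched for 8 members, *Ctsa*, *Ctsc*, *Ctsd*, *Ctsk*, *Ctsl*, *Ctss*, *Ctsz* and *Lgmn*. The E-box, which reads the same on both strands, was in a window of 4 of them, *Ctsa*, *Ctsd*, *Ctsl* and *Lgmn*, and in one of 8.09% of all 27025 genes (7.15% of 32851 windows). The longer form TCACGTG, searched on both strands and overlapping the E-box, was in windows of *Ctsa*, *Ctsd* and *Lgmn* and in those of 4.29% of genes. The 30 bases around each match are shown 5′ to 3′ on the gene's strand with the E-box in capitals.
*Ctsd*, chr7:142388048-142388077, minus strand, E-box from 245 bases before the start: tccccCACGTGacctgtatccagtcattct
*Ctsd*, chr7:142387908-142387937, minus strand, from 98 bases before the start: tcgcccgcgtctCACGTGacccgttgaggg
*Ctsa*, chr2:164833749-164833778, plus strand, from 12 bases before one of its starts: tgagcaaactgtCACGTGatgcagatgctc
*Ctsa*, chr2:164833766-164833795, plus strand, from base 6 after the same start: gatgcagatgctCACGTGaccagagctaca
*Lgmn*, chr12:102439124-102439153, minus strand, from 49 bases before one of its starts: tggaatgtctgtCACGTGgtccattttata
*Ctsl*, chr13:64370739-64370768, minus strand, from 236 bases before the start: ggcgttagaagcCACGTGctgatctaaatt

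These matches describe letters in the reference genome. Binding was not measured, and a part of it in any difference between the libraries was not tested. Distances are from RefSeq starts, which differ from the ends of the GENCODE spans above. By those spans the first *Ctsd* match lies outside its gene, and the other matches lie inside theirs.

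The CD library held 15003119 unique molecular identifiers (UMIs, tags that count single RNA molecules) in 4459 barcodes, and the HFD library 9164686 in 3163. Cells with 200 to 3500 genes and at most 10% mitochondrial UMIs were kept, which left 2364 CD and 2021 HFD cells. Median depth was 4490.5 UMIs in the CD and 2792 in the HFD cells. Kept cells with under 1000 genes were 14.4% of CD and 40.8% of HFD cells, and 14 barcodes were present in both libraries. Macrophage genes marked the sort, with *Adgre1*, which encodes F4/80, at 274 CPM in CD and 240 in HFD and *Csf1r* at 815 and 470. Of the lymphocyte markers, *Cd3e* and *Ms4a1* had no UMI in either library, but others did. The 3 B cell markers summed to 62 UMIs in CD and 47 in HFD, and the 4 T or NK markers to 26 and 7. The 6 dendritic markers summed to 217 CPM in CD and 222 in HFD. Stromal markers (*Col1a1*, *Col3a1*, *Dcn*) summed to 70.7 CPM in CD and 4.2 in HFD, and 5 CD cells held 90.1% of the CD UMIs.

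Levels are UMIs of a gene per 1000000 UMIs of the same cells (CPM), summed over cells. Each molecule gives 1 tag near its 3′ end whatever its length, so levels of different genes were set side by side without division by length, although capture may differ between genes. Intervals are 95% and cover counting error only. The 6 gates overlap: cells with a UMI of *Timd4* (Timd4+, 368 CD and 72 HFD cells), of *Lyve1* (Lyve1+, 1172 and 415), of *Folr2* without *Lyve1* (Folr2+Lyve1-, 872 and 581), of *Ccr2* (Ccr2+, 1326 and 1131) and of *Trem2* (Trem2+, 638 and 168), and cells with at least 10 *Lyz1* UMIs (Lyz1-high, 555 and 672). *Timd4*, *Lyve1* and *Folr2* mark resident macrophages, *Ccr2* and *Lyz1* cells close to monocytes, and *Trem2* lipid-associated macrophages. The gates were mixed by summed marker lists. Lipid-associated markers were at 955 CPM in Trem2+ and 951 in all kept cells of CD, and at 2174 and 992 in HFD. In Folr2+Lyve1- cells of CD, monocyte-derived markers were at 7263 and resident markers at 2454. Timd4+ and Lyve1+ cells had more resident than monocyte-derived markers in CD. In HFD, resident markers were at 3926 and 4035 in them, and monocyte-derived ones at 5221 and 5376. Dendritic markers were at 727 CPM in Timd4+ cells of HFD and 233 in those of CD, beside 222 in all kept cells of HFD.

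A pair of classes with no cell in common was also set. The resident class had *Lyve1* or *Timd4* and under 10 *Lyz1* UMIs, 1120 CD cells (47.4%) and 395 HFD cells (19.5%). The Lyz1-high class had at least 10 *Lyz1* UMIs and neither *Lyve1* nor *Timd4*, 421 CD cells (17.8%) and 608 HFD cells (30.1%). Median depth differed between them, 3783 UMIs in CD and 2118 in HFD for the resident class against 7922 and 6429.5 for the Lyz1-high class, and a deeper cell reaches 10 *Lyz1* UMIs more easily. A UMI of *Lyve1* or *Timd4* is also missed more easily in a shallower cell, so the shares of cells in the classes depend on depth. Cells without *Lyve1*, *Timd4* or *Folr2* and under 10 *Lyz1* UMIs were 6.35% in CD and 26.4% in HFD. Their median depth was 3401.5 and 1477.5 UMIs.

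The 10 genes together made up 0.722% of the UMIs in CD cells and 0.760% in HFD cells. Their share was 0.913% in CD and 0.972% in HFD for the resident class, and 0.517% and 0.646% for the Lyz1-high class. The highest share of any gate, 1.13%, was in Trem2+ cells of HFD, against 0.871% in those of CD. Per cell the CD resident class had a median of 0.892% with quartiles of 0.724% and 1.08%, and the CD Lyz1-high class a median of 0.461% with quartiles of 0.362% and 0.595%. The upper quartile of the Lyz1-high class was below the lower quartile of the resident class in CD. In HFD the medians were 0.897% and 0.587%, and the quartiles overlapped, with 0.671% as the lower one of the resident and 0.788% as the upper one of the Lyz1-high class.

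A cell commonly held several of these transcripts at once. After thinning each cell to 800 UMIs, which leaves out 30 CD and 147 HFD cells, a mean of 3.77 of the 10 genes was detected per CD cell and 3.74 per HFD cell. The resident class held 4.17 in CD and 4.12 in HFD, and the Lyz1-high class 2.90 and 3.37. Unthinned, the means over all kept cells were 7.30 and 6.32.

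The order of the genes in CD cells was led by *Ctsb*, a cysteine protease that cuts within chains and from their ends, at 2073 CPM. *Ctss* at 1094 and *Ctsc*, which activates granule serine proteases, at 1076 had intervals that overlapped. *Lgmn* followed at 766, *Ctsd* at 622, the aminopeptidase *Ctsh* at 579, the carboxypeptidase *Ctsz* at 516, *Ctsa*, which shields lysosomal galactosidase and neuraminidase, at 284, and *Ctsl* at 209. In HFD cells *Ctsb* led at 1620 CPM and *Ctss* stood close to it at 1540. *Ctsd* came next there at 1172, followed by *Ctsc* at 887, *Ctsz* at 766, *Lgmn* at 682, *Ctsh* at 520, *Ctsl* at 228 and *Ctsa* at 190.

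*Ctsk*, the collagen-degrading cathepsin best known from osteoclasts, was close to absent. It had 15 UMIs in 10 CD cells and 6 UMIs in 5 HFD cells, or 1.22 CPM (0.68 to 2.01) and 0.74 CPM (0.27 to 1.61). A single CD cell held 5 of the 15. A UMI of a stromal marker was also in 3 of the 10 CD cells and in 0 of the 5 HFD cells. The cells with *Ctsk* had a median depth of 7924.5 UMIs in CD and 9316 in HFD. No *Ctsk* UMI was found in Timd4+ cells of HFD, which allows up to 3 UMIs among 280431 by the limit for a count of 0, a one-sided bound. *Ctsk* had under 100 UMIs in every comparison, so the counts below are over 9 members.

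**Figure D1:**
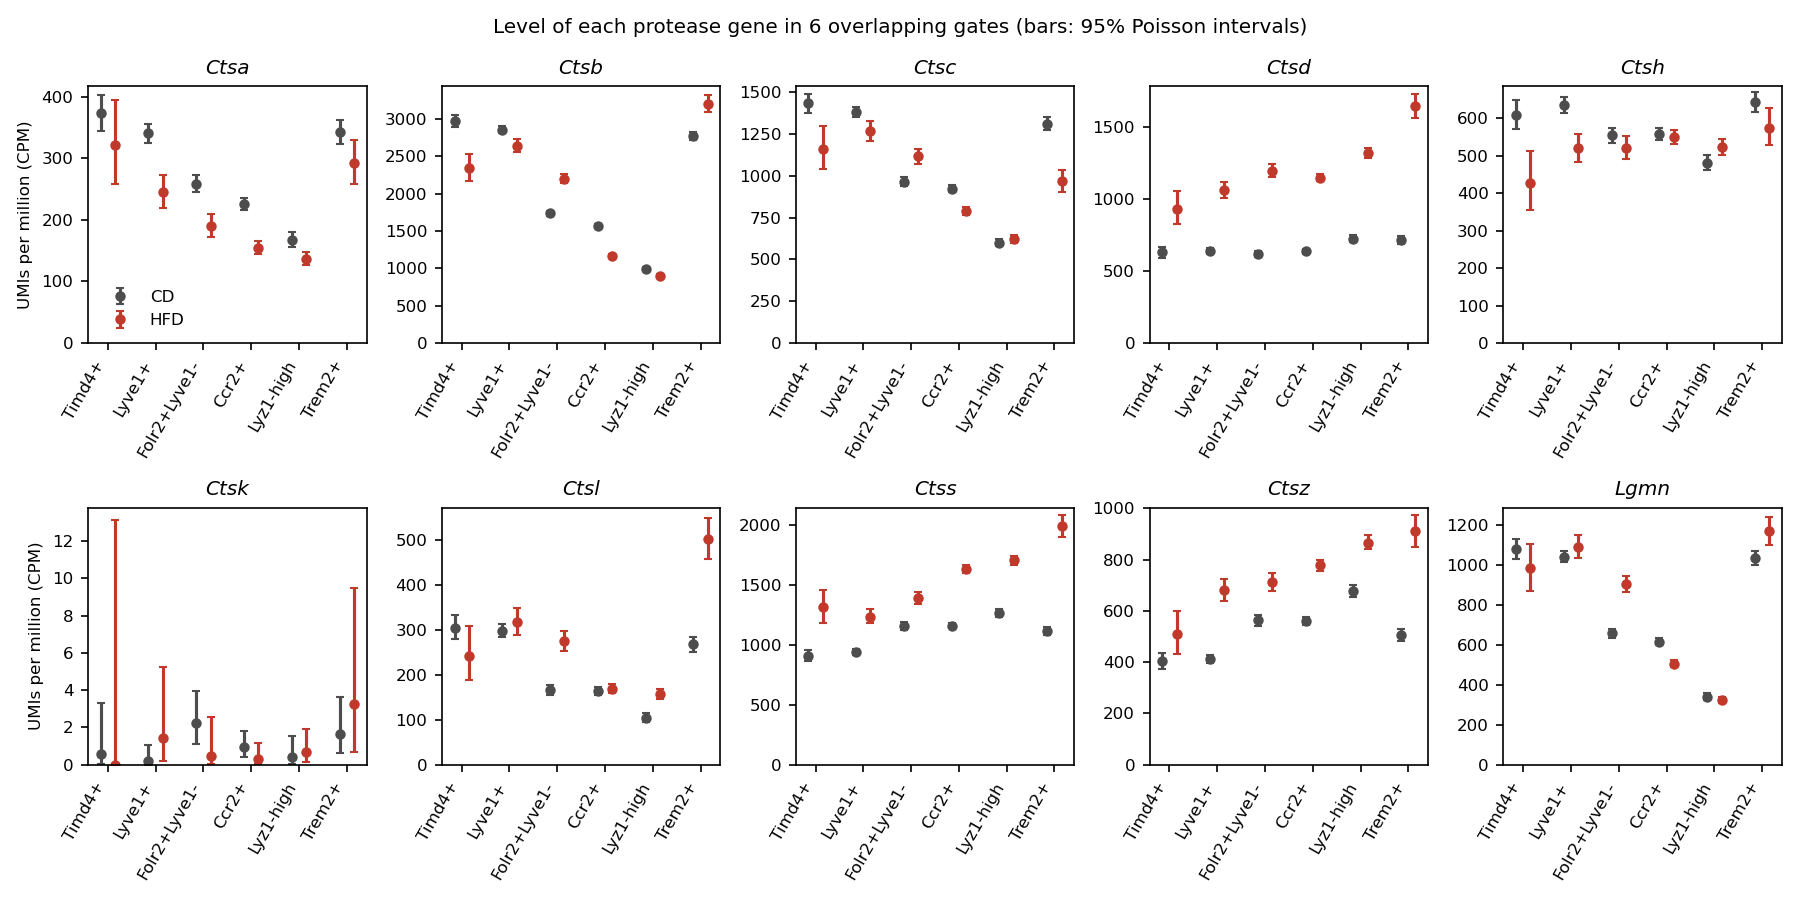
CPM of each of the 10 genes in the 6 overlapping gates, with CD in grey and HFD in red and bars for 95% Poisson intervals. *Ctsb* in CD lay between 989 CPM in Lyz1-high and 2976 in Timd4+ cells, while *Ctsd* in CD stayed between 617 and 725 and was higher in HFD in every gate.

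Resident ATMs and *Lyz1*-rich cells differed by up to 2.15 on the log2 scale in the 9 members, and the diets by up to 1.20 in any gate. In CD, 5 of 9 members were at least 1.5-fold higher in the resident than in the Lyz1-high class, where 25.9% of 6436 genes were, and 1 was lower, where 11.2% of genes were. In HFD the same 5 were higher, against 23.1% of 4839 genes, and 2 were lower, against 13.3%. The median log2 ratio of the 9 members was 1.21 in CD and 1.16 in HFD, beside 0.18 and 0.12 over all genes tested. Both classes were cut from each library by *Lyve1*, *Timd4* and *Lyz1*, none of which is a member. The study had already named *Ctsb*, *Ctsc*, *Ctsl* and *Lgmn* from these libraries, so the count is not independent evidence of their direction.

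*Lgmn* differed most. It stood at 1163 CPM in the resident and 280 CPM in the Lyz1-high class of CD, and at 1348 and 304 in HFD. The log2 ratio was 2.05 (1.96 to 2.15) in CD and 2.15 (2.04 to 2.26) in HFD, a 4.15-fold and 4.43-fold difference. *Ctsb* was at 3194 against 851 CPM in CD and 3210 against 846 CPM in HFD, and its log2 ratios of 1.91 (1.85 to 1.96) and 1.92 (1.85 to 1.99) were nearly the same in both libraries.

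*Ctsl*, *Ctsc* and *Ctsa* shared this direction. *Ctsl* was at 335 against 95.4 CPM in CD and 355 against 149 CPM in HFD, with log2 ratios of 1.81 (1.64 to 1.99) and 1.254 (1.06 to 1.44), intervals that did not overlap. *Ctsc* was at 1517 against 533 CPM in CD and 1473 against 603 CPM in HFD. *Ctsa* was at 381 against 165 CPM in CD and 300 against 134 CPM in HFD. These 5 genes were at least 1.5-fold higher in both libraries under all 11 alternative settings tried.

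*Ctss*, *Ctsz* and *Ctsd* went the other way. *Ctsz* was at 369 CPM in the resident and 712 CPM in the Lyz1-high class of CD, a log2 ratio of -0.95 (-1.04 to -0.86), and at 570 and 871 CPM in HFD, -0.61 (-0.74 to -0.48). *Ctss* was at 914 and 1347 CPM in CD, -0.56 (-0.62 to -0.50), and at 1086 and 1718 CPM in HFD, -0.66 (-0.75 to -0.57), which passes 1.5-fold in HFD alone. In HFD neither passed with at least 1000 genes per cell, at -0.43 for *Ctsz* and -0.54 for *Ctss*, or at a mitochondrial limit of 5%, at -0.46 and -0.49. *Ctsd* was at 594 and 704 CPM in CD and at 877 and 1309 CPM in HFD, with log2 ratios of -0.24 and -0.58, under 1.5-fold in each. *Ctsh* was at 666 and 481 CPM in CD, 0.47 (0.38 to 0.56), and at 497 and 521 CPM in HFD, -0.07 (-0.21 to 0.07).

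**Figure D2:**
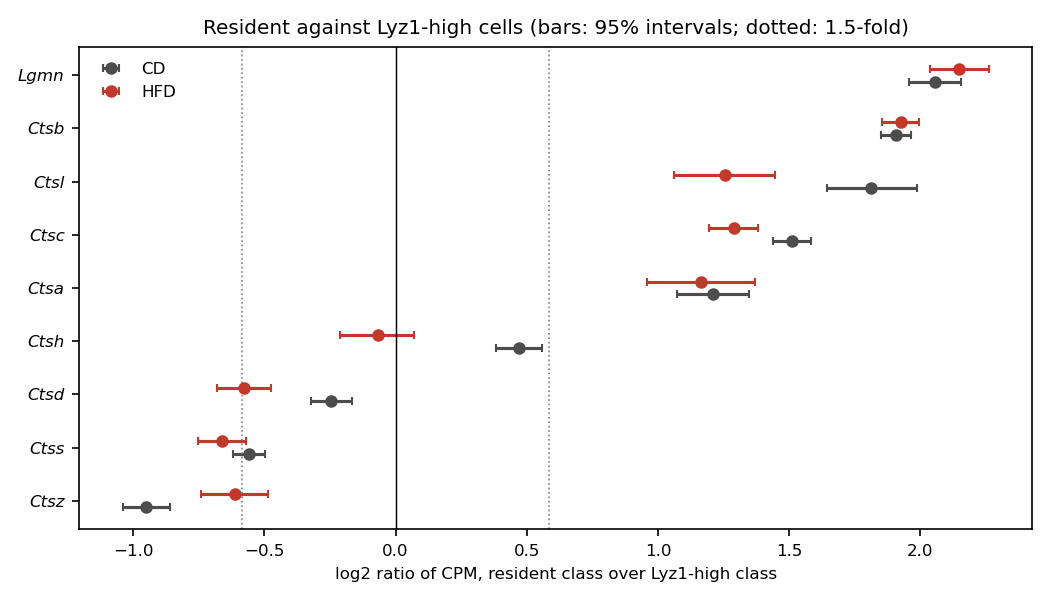
Log2 ratio of CPM in the resident class over the Lyz1-high class for 9 genes, CD in grey and HFD in red, with 95% intervals and dotted lines at 1.5-fold. *Lgmn*, *Ctsb*, *Ctsl*, *Ctsc* and *Ctsa* lie right of the upper line in both libraries, and *Ctsz* lies left of the lower line in both, in HFD not with at least 1000 genes per cell or a mitochondrial limit of 5%.

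The dissociation and heat shock list, 6 of 6 genes with UMIs, moved with the classes. It summed to 11303 CPM in the resident and 4941 CPM in the Lyz1-high class of CD, and to 12605 and 5469 CPM in HFD. Its part in the differences between classes was not tested. The 5 genes kept their direction in cells with at most 5% mitochondrial UMIs and after gates and levels were set at 800 UMIs per cell. Neither setting adjusts for the genes of the dissociation and heat shock list. Wherever gates were set after thinning to 800 UMIs, the *Lyz1* cut was 3 UMIs in place of 10. The Lyz1-high gate and both classes were thus redefined along with the change of depth.

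The mix of transcripts within the family turned with the class. *Ctsb* made up 35.0% of the family's UMIs in the CD resident class and 16.5% in the CD Lyz1-high class, and *Lgmn* 12.7% and 5.42%. *Ctss* went from 10.0% to 26.1% and *Ctsz* from 4.04% to 13.8%. In HFD the leading transcript was *Ctsb* in the resident class, at 33.0%, and *Ctss* in the Lyz1-high class, at 26.6%, followed by *Ctsd* at 20.3%. Cells with *Lyve1* or *Timd4* that also had at least 10 *Lyz1* UMIs, 134 in CD and 64 in HFD, lay between, with *Ctsb* at 23.8% and 17.6%.

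**Figure D3:**
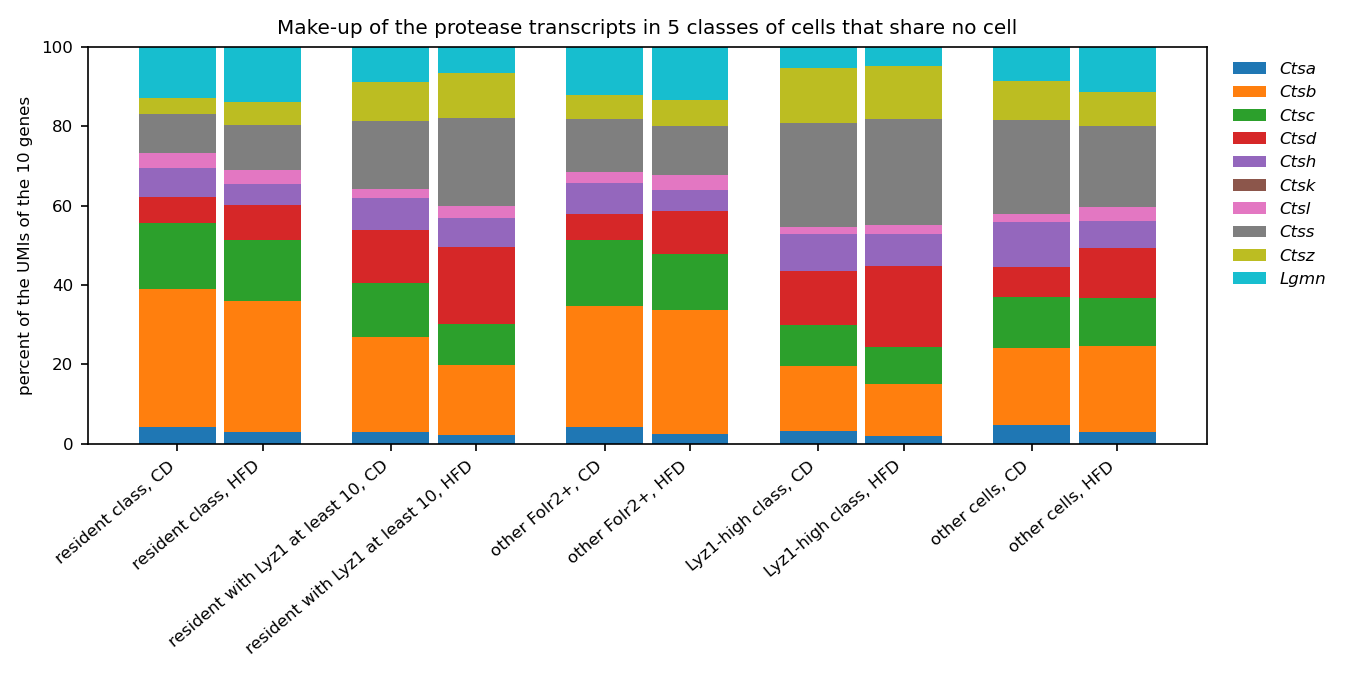
Percent of the UMIs of the 10 genes that each gene takes, stacked, in 5 classes of cells that share no cell, for CD and HFD side by side. *Ctsb* takes 35.0% of the CD resident class and 16.5% of the CD Lyz1-high class, and *Ctsd* takes 13.6% of the Lyz1-high class in CD and 20.3% in HFD.

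Levels were also followed over 5 bins of cells by their *Lyz1* content, from no *Lyz1* UMI to over 80 per 10000 UMIs of the cell. This scaling does not remove depth from the bins. In a shallow cell few *Lyz1* UMIs suffice for a high bin, and *Lyz1* is more easily missed altogether. *Lgmn* in CD was at 1081 CPM in cells without *Lyz1*, 1008, 891 and 424 in the next bins, and 139 in the richest 197 cells. In HFD it went from 1253 to 231 CPM. *Ctsb* went from 3008 to 599 CPM in CD and from 2770 to 645 in HFD, and in both most of the drop lay above 20 *Lyz1* UMIs per 10000.

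*Ctsl* in CD went from 299 to 69.1 CPM and *Ctsc* from 1411 to 379 over the same bins. *Ctss* was higher at the rich end, from 984 to 1448 CPM in CD and from 1239 to 1834 in HFD, and *Ctsz* from 384 to 805 and from 572 to 914. The course was not steady in HFD, where *Ctss* was at 1595, 1176 and 1560 CPM in the bins between. *Ctsc* in HFD was at 1354, 999, 1312, 735 and 539 CPM over the 5 bins. *Ctsd* in CD was at 528 CPM without *Lyz1*, highest at 739 in the fourth bin and at 703 in the fifth, and in HFD at 881, 1315 and 1306. In each bin *Ctsd* was higher in HFD than in CD.

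**Figure D4:**
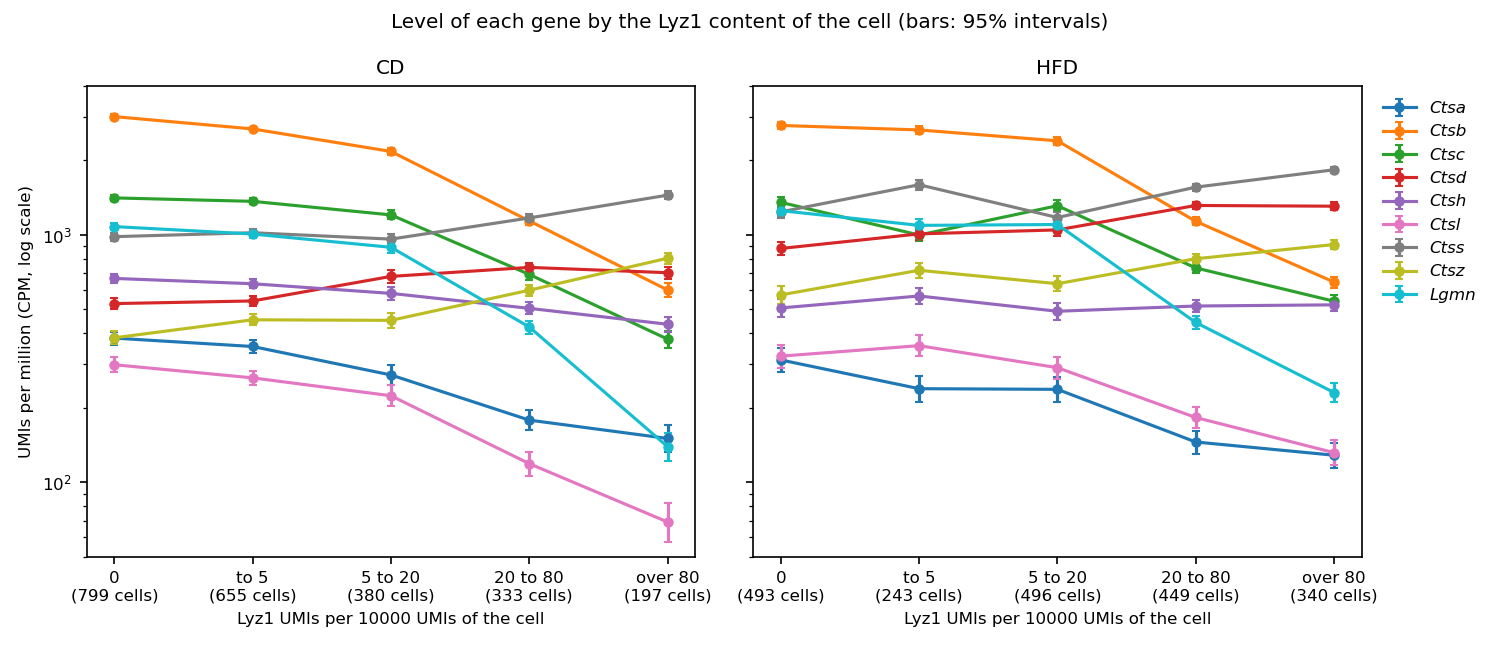
CPM of 9 genes on a log axis against the *Lyz1* UMIs per 10000 UMIs of the cell in 5 bins, CD left and HFD right, with 95% intervals and the number of cells per bin. *Lgmn* goes from 1081 to 139 CPM in CD and from 1253 to 231 in HFD, while *Ctss* and *Ctsz* are highest in the richest bin.

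Each gate was set against all other cells of its library. In Lyve1+ cells 4 members, *Ctsb*, *Ctsc*, *Ctsl* and *Lgmn*, were at least 1.5-fold higher in CD, where 12.7% of 7587 genes were, and the same 4 in HFD, where 10.2% of 6420 genes were. None was lower in them, against 6.56% of genes in CD and 4.98% in HFD. *Ctsl* in HFD, at 0.60, passed in 4 of 12 alternatives and was as low as 0.26. In Ccr2+ cells *Ctsa*, *Ctsb*, *Ctsc*, *Ctsl* and *Lgmn* were lower in both libraries, against 16.8% of genes in CD and 19.4% in HFD, and none was higher, against 8.19% and 7.57%. The *Ctsc* values, -0.65 in CD and -0.61 in HFD, passed in 7 and 3 of 12 alternatives, and were -0.28 and -0.20 with gates set after thinning to 800 UMIs. The same 5 were lower in Lyz1-high cells, against 20.9% and 20.1%, and *Ctsz* was higher in them in CD, against 7.67%, with no member higher in HFD, against 5.5%.

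Timd4+ cells of CD had higher *Ctsb*, *Ctsl* and *Lgmn*, 3 of 9 against 9% of genes, and none lower, against 6.04%. These passed in 5, 7 and 6 of 12 alternatives, with lowest log2 ratios of 0.45, 0.46 and 0.36. In HFD, with 72 such cells, *Ctsa* was higher, against 13.3% of genes, and *Ctsz* lower, against 15.5%. The HFD *Ctsa* value reversed when gates were set after thinning to 800 UMIs, and the *Ctsz* value reversed among cells that were in 1 gate alone.

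In Trem2+ cells *Ctsb* and *Lgmn* were higher in CD, 2 of 9 against 2.9% of genes, with none lower, against 3.59%, and log2 ratios of 0.64 and 0.67. In HFD *Ctsa*, *Ctsb*, *Ctsl* and *Lgmn* were higher, 4 of 9 against 6.56%, with none lower, against 11.4%, and with *Ctsl* at 1.38 and *Ctsb* at 1.18. In HFD their *Ctss*, *Ctsd* and *Ctsz* levels, 1991, 1645 and 909.5 CPM, were also above those of every other gate. Resident markers summed to 5349 CPM in Trem2+ cells of CD and 1352 CPM in those of HFD, so the gate did not hold the same mix of cells in both. Among cells in the *Trem2* gate alone, *Ctsb* in CD was no longer higher, at -0.073, and both CD calls were kept in 7 of 12 alternatives. Folr2+Lyve1- cells had no member past 1.5-fold in CD, against 1.11% of genes higher and 4.17% lower, and in HFD had *Ctsb* and *Lgmn* higher, against 3.38%, and none lower, against 1.96%.

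After thinning to 800 UMIs, *Ctsb* was detected in 90.8% of CD cells of the resident class and 45.8% of those of the Lyz1-high class, and in 84.0% and 44.2% in HFD. *Lgmn* was detected in 60.4% and 19.95% in CD and in 61.5% and 20.1% in HFD. *Ctss* was detected in 49.6% and 60.1% in CD and in 48.7% and 70.9% in HFD. *Ctsl* was detected in 22.3% and 6.65% in CD. The sort held no cell type known to lack these genes, so the part of free RNA in these shares was not tested.

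Between the diets, *Ctsd* was the one member past 1.5-fold over all kept cells. It had 7636 UMIs or 622 CPM in CD and 9478 UMIs or 1172 CPM in HFD, a log2 ratio of 0.91 (0.87 to 0.96), or 1.89-fold. This is 1 of 9 members higher, where 3.8% of 8708 genes were, and 0 of 9 lower, where 7.11% were. The members' median was -0.16, beside -0.01 over all genes. The *Ctsd* ratio ranged from 0.79 to 0.97 over 11 alternatives and passed 1.5-fold in each.

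*Ctsd* was higher in HFD in all 6 gates. In Timd4+ cells it was at 630 CPM in CD and 934 in HFD, a log2 ratio of 0.57 (0.37 to 0.77). In Lyve1+ cells the levels were 639 and 1061, in Folr2+Lyve1- cells 617 and 1199, in Ccr2+ cells 637 and 1150, and in Lyz1-high cells 725 and 1320. In Trem2+ cells, from 718 to 1645 CPM, it was 1.20 (1.10 to 1.29), the highest of the gates. With gates set after thinning to 800 UMIs it was 0.31 in Trem2+, 0.28 in Lyve1+ and 0.54 in Folr2+Lyve1- cells, all under 1.5-fold, and 0.69 in Ccr2+ and 0.87 in Lyz1-high cells, with no value for Timd4+ cells. In the classes without shared cells it was 0.56 (0.45 to 0.67) in the resident and 0.89 (0.83 to 0.96) in the Lyz1-high class. The resident value was 0.35 with gates set after thinning, and it passed 1.5-fold in 3 of 11 alternatives. The Lyz1-high value passed in all 11. Thinned to 800 UMIs, *Ctsd* was detected in 37.4% (35.5 to 39.4) of CD and 49.6% (47.3 to 51.9) of HFD cells. In the resident class it was 37.4% (34.5 to 40.3) and 44.5% (39.4 to 49.6), intervals that overlapped. In the Lyz1-high class it was 37.8% (33.1 to 42.6) and 59.2% (55.2 to 63.1).

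*Ctsz* and *Ctss* were also higher in HFD, by less than 1.5-fold over all kept cells. *Ctsz* went from 516 to 766 CPM, 0.57 (0.52 to 0.62), and *Ctss* from 1094 to 1540 CPM, 0.49 (0.46 to 0.53). Within the classes the *Ctsz* ratio was 0.63 in resident and 0.29 in Lyz1-high cells, and that of *Ctss* 0.25 and 0.35. With gates set after thinning to 800 UMIs, the resident values were 0.50 for *Ctsz*, under 1.5-fold, and -0.12 for *Ctss*, a change of sign. When HFD cells were weighted to the CD make-up of 5 classes, the *Ctsz* ratio was 0.45, its lowest value over the alternatives.

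*Ctsb*, *Lgmn*, *Ctsc*, *Ctsh* and *Ctsa* were lower in HFD over all kept cells, none by 1.5-fold. *Ctsb* went from 2073 to 1620 CPM, -0.36 (-0.39 to -0.33), and *Lgmn* from 766 to 682 CPM, -0.17 (-0.22 to -0.12). Within the classes *Ctsb* was 0.01 (-0.05 to 0.06) in resident and -0.01 (-0.08 to 0.06) in Lyz1-high cells, and *Lgmn* 0.21 (0.13 to 0.30) and 0.12 (-0.0022 to 0.24). With the CD make-up of classes and at least 1000 genes per cell, the ratio over all cells became 0.13 for *Ctsb* and 0.28 for *Lgmn*, the highest of 11 alternatives. With at least 1000 genes alone it was -0.46 and -0.31, the lowest. Both genes stayed below 0 in 9 of the 11. The part of class make-up in these ratios was not tested. *Ctsa*, at -0.58 (-0.67 to -0.49) over all cells, stayed below 0 in both classes, at -0.35 (-0.53 to -0.17) and -0.30 (-0.47 to -0.13). *Ctsc*, at -0.28 over all cells, was at -0.04 in the resident and 0.18 in the Lyz1-high class. With classes weighted as in CD it was at 0.04. *Ctsh*, at -0.16 over all cells, was below 0 in all 11 alternatives, with -0.42 in the resident and 0.12 in the Lyz1-high class.

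Within the gates, 10 of 54 pairs of member and gate were at least 1.5-fold higher in HFD and 0 were lower. With gates set after thinning to 800 UMIs, 3 were higher and 1 lower, and with 2 UMIs of the gate gene and 20 of *Lyz1*, 5 were lower. No member passed in Timd4+ cells, where 5% of 2460 genes were higher. *Ctsd* and *Ctsz* passed in Lyve1+ cells, against 4.79% of genes, and *Ctsd* and *Ctsl* in Folr2+Lyve1- cells, against 4.89%. *Ctsd* alone passed in Ccr2+ cells, against 3.08%, and in Lyz1-high cells, against 2.99%. The 0 members lower stand beside 14% of genes lower in Timd4+, 6.8% in Lyve1+, 4.48% in Folr2+Lyve1-, 6.71% in Ccr2+, 4.67% in Lyz1-high and 14.6% in Trem2+ cells. Gates share cells, so these counts overlap.

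Trem2+ cells had the most, *Ctsd*, *Ctsl*, *Ctss* and *Ctsz*, 4 of 9 against 7.83% of 4702 genes. *Ctsl* there went from 267 to 501 CPM, a log2 ratio of 0.91 (0.74 to 1.07), *Ctss* from 1112 to 1991 CPM, 0.84 (0.76 to 0.92), and *Ctsz* from 506 to 909.5 CPM, 0.85 (0.73 to 0.96). The *Ctss* value reversed to -0.12 when gates were set after thinning to 800 UMIs. Lipid-associated markers, 6 of 6 with UMIs, summed to 955 CPM in these cells of CD and 2174 CPM in HFD, and monocyte-derived markers, 5 of 5, to 3610 and 5641. Their part in these ratios was not tested.

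In the classes, *Ctsz* alone passed in resident cells, 1 of 9 against 7.04% of 5514 genes, and *Ctsd* and *Ctsl* in Lyz1-high cells, 2 of 9 against 3.93% of 5829 genes. None was lower, against 6.73% of genes in the resident and 3.89% in the Lyz1-high class. *Ctsl* in the Lyz1-high class went from 95.4 to 149 CPM, 0.64 (0.45 to 0.84), and in the resident class from 335 to 355 CPM, 0.08 (-0.09 to 0.25). Monocyte-derived markers summed to 904 CPM in CD and 1762 CPM in HFD within the resident class, and resident markers to 7950 and 5351, so the class also differed in make-up between the libraries.

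**Figure D5:**
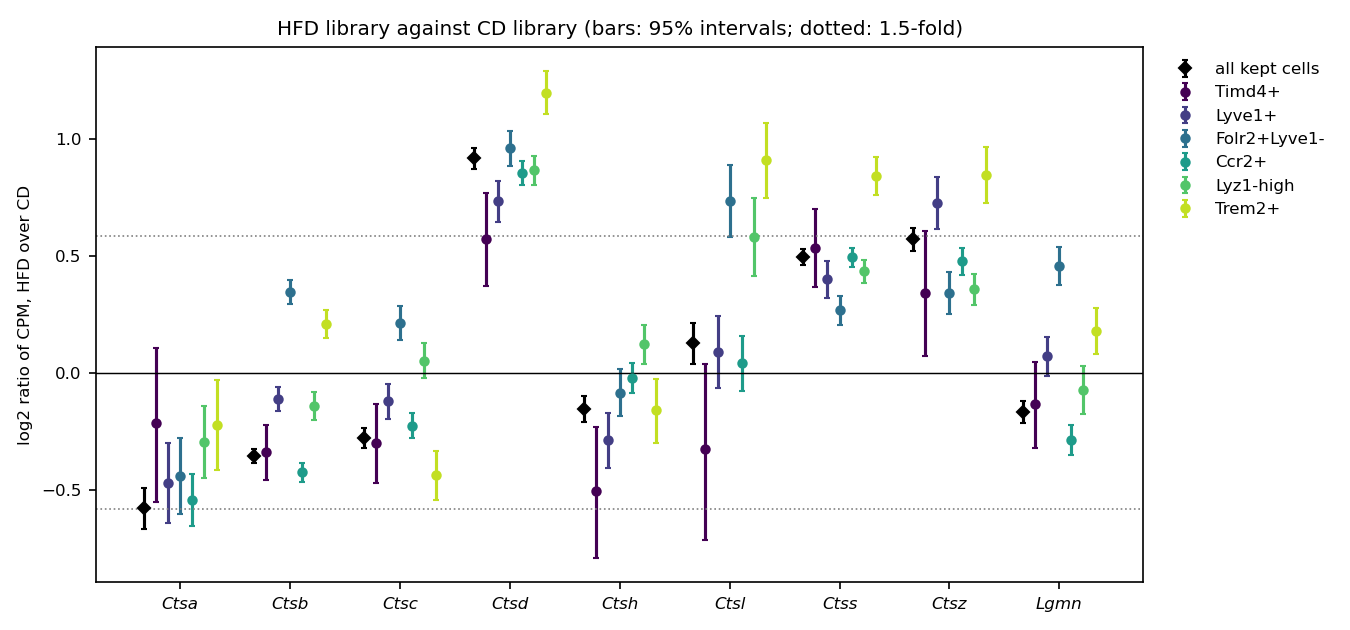
Log2 ratio of CPM in HFD over CD for 9 genes, over all kept cells (black diamonds) and in 6 overlapping gates (coloured points), with 95% intervals and dotted lines at 1.5-fold. *Ctsd* lies above 0 in every gate, from 0.57 in Timd4+ to 1.20 in Trem2+ cells, while *Ctsb* and *Lgmn* lie on both sides of 0. With gates set after thinning to 800 UMIs *Ctsd* is 0.31 in Trem2+ cells.

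Genes that act with these proteases were taken from lists by role. Among the inhibitors, *Cstb*, which encodes the stefin that inhibits cysteine cathepsins inside the cell, was higher in HFD, from 397 to 621 CPM, 0.64 (0.59 to 0.70), and in the Lyz1-high class from 347 to 595 CPM, 0.78 (0.68 to 0.88). In the resident class *Cstb* went from 438 to 601 CPM, 0.46 (0.32 to 0.59), under 1.5-fold. *Cst3*, the secreted cystatin C, went from 4152 to 2908 CPM over all cells, -0.51, with 0.00 within the Lyz1-high class and -0.43 within the resident class. These were the 2 of 9 inhibitors with at least 100 UMIs. *Cst7*, or cystatin F, had no UMI in either library, which allows up to 3 UMIs in each, and whether its row is complete in the files is not known.

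Of 7 genes for sorting to the lysosome, 2 were higher in HFD and 0 lower, beside 3.8% and 7.11% of all genes. They were *Igf2r*, a mannose 6-phosphate receptor, from 51 to 101 UMIs, 1.59 (1.09 to 2.10), and the sorting receptor *Sort1*, from 78 to 81 UMIs, 0.66 (0.19 to 1.13). In the Lyz1-high class *Igf2r* was at 0.79 (0.18 to 1.42), in the resident class it had 1 UMI in CD and 2 in HFD, and *Sort1* had under 100 UMIs in both classes. The other such receptor, *M6pr*, was at 154 CPM in CD and 134 in HFD. Of 6 lysosomal membrane genes 0 passed in either direction, and their median was -0.14. Of 4 MiT/TFE factors *Tfe3* was lower, from 78.4 to 51.8 CPM, -0.60 (-0.77 to -0.43), and *Tfeb* was at 21.7 and 27.9. Within the classes *Tfe3* was under 1.5-fold, at -0.41 (-0.77 to -0.07) in the resident and -0.57 (-0.90 to -0.25) in the Lyz1-high class.

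Of 14 other cathepsins, 2 had at least 100 UMIs, and both were lower in HFD over all kept cells, beside 7.11% of all genes. *Ctsf* was at -0.84 (-1.18 to -0.51) and *Ctso* at -0.61 (-0.90 to -0.32). Within the resident class neither passed 1.5-fold, with *Ctsf* at -0.15 (-0.76 to 0.41) and *Ctso* at -0.54 (-1.20 to 0.06). In the Lyz1-high class both had under 100 UMIs. Of the 4 partners and substrates measured, *Psap*, the precursor of the saposins that cathepsin D cleaves, was at 3101 CPM in CD and 3189 CPM in HFD. *Cd74*, the invariant chain that cathepsin S trims, was at 21162 and 26596 CPM, under 1.5-fold.

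Between the classes of CD, 5 of 6 lysosomal membrane genes were at least 1.5-fold higher in resident cells and 0 lower, beside 25.9% and 11.2% of all genes. The study had named *Cd63*, *Lamp1* and *Lamp2* from these libraries too. *Cd63*, a tetraspanin, was at 629 against 108 CPM, a log2 ratio of 2.55 (2.39 to 2.70), and *Lamp2* at 446 against 211 CPM, 1.08 (0.96 to 1.20). *Lamp1* was at 0.87, *Cd68* at 0.84 and *Scarb2* at 0.78, while *Laptm5* was at -0.29. In HFD 4 of 6 passed, beside 23.1% of genes, with *Cd63* at 2.67, *Cd68* at 0.94, *Lamp2* at 0.93 and *Scarb2* at 0.63. *Lamp1* at 0.51 and *Laptm5* at 0.03 did not. *Cst3* was at 5883 against 2259 CPM in CD, 1.38 (1.34 to 1.42), and 0.95 in HFD.

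The other lists split. *Tfe3* and *Mitf* were higher in resident cells, 2 of the 3 factors tested beside 25.9% of genes in CD and 23.1% in HFD, at 1.02 and 0.76 in CD and 1.19 and 0.61 in HFD. *Ctsf* and *Ctso* were higher in CD, at 2.05 and 1.46, and were under 100 UMIs in HFD. *Neu1*, the neuraminidase that cathepsin A shields, was higher at 0.67 in CD and 0.89 in HFD, and *Glb1*, the galactosidase of the same complex, was at 0.54 in CD, under 1.5-fold, and higher at 0.74 in HFD. *Psap* was lower in resident cells of CD, 2356 against 3850 CPM, -0.71 (-0.75 to -0.67), and at -0.18 in HFD. *Cd74* was at -0.50 in CD and -0.64 in HFD. Of the sorting genes tested, 0 of 4 passed in CD, beside 25.9% of genes higher and 11.2% lower. In HFD 1 of 3 was higher and 0 lower, beside 23.1% and 13.3%. It was *Nagpa*, at 36.1 against 22.6 CPM, 0.68 (0.09 to 1.24), with 0.58 in CD.

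Over the 12 pairs of gate and library, the members fell into sets by the likeness of their levels. *Ctsb* and *Lgmn* had a Pearson r of 0.988 on log2 CPM with a pseudocount of 1, *Ctsc* and *Lgmn* 0.926, *Ctss* and *Ctsz* 0.935, and *Ctsd* and *Ctss* 0.902. The lowest r was -0.73, for *Ctsa* and *Ctsz*. Of 2448 genes with at least 1000 UMIs, those most like *Lgmn* were *C3ar1* at 0.992 and *Ctsb*. Those most like *Ctsb* were *Il10rb* at 0.988 and *Lgmn*.

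For *Ctsd* the most alike genes were *Sap18* at 0.981 and *Manf* at 0.974, for *Ctsz* *Aldoa* at 0.987 and *Lgals3* at 0.980, and for *Ctss* *Pold4* at 0.966 and *Lgals3* at 0.962. For *Ctsc* they were *Fos* at 0.983, which is on the dissociation list, and *Tcf4* at 0.981, for *Ctsl* *Ik* at 0.985 and *Abhd12* at 0.975, for *Ctsa* *Atraid* at 0.971 and *Rgs18* at 0.962, and for *Ctsh* *Tnfaip8l2* at 0.919 and *Pih1d1* at 0.902. The 12 points share cells, since gates overlap, and library depth, so these values are descriptions and carry no p-value.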

How the data were processed

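Droplet-based scRNA-seq (10x 3′ chemistry) of sorted epididymal ATMs gave 1 library per diet. The deposited values were raw counts, as whole UMIs for every gene in every barcode. The authors had obtained them from Cell Ranger 3.0.2 with the mm10 genome and annotation of Ensembl 93, and had not normalized them. UMIs were summed over cells with 200 to 3500 genes and at most 10% mitochondrial UMIs (Python 3.11.15, pandas 2.3.3, numpy 2.4.6, scipy 1.17.1), and figures were drawn with matplotlib 3.10.9. CPM had exact Poisson intervals, ratios exact conditional binomial intervals and shares exact Clopper-Pearson intervals, all at 95%. Genes with at least 100 UMIs over both sides of a comparison were compared, and a difference was counted from 1.5-fold. No test was run, since each diet had 1 library. Doublets were not called. The mouse genes and lists were chosen with earlier results of these data known. All 10 members were named, and of the lists the genes past 1.5-fold, *Cst3*, *Cstb* and *Cst7*; *M6pr*, *Tfeb*, *Psap*, *Cd74*, *Glb1*, *Laptm5* and *Lamp1* were also named where they did not pass, after their values were seen. Likeness took the 2 genes with the highest r for each member. Alternatives changed the filters on genes and mitochondrial UMIs, the scaling, the gates and the fold. Gates set after thinning to 800 UMIs took a *Lyz1* cut of 3 UMIs. The alternatives that weighted classes as in CD, or left out cells with a UMI of *Col1a1*, *Col3a1* or *Dcn*, were chosen after seeing the data. The intervals were tested on simulated Poisson counts, which hold no variation between cells, mice or libraries, so that test covers counting error only.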

Additional observations from a re-analysis of the deposited data

Results flagged for a closer look

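*Ctsh*, an aminopeptidase of the lysosome, differed between the diets in opposite directions in the classes. Its log2 ratio of HFD over CD was -0.42 (-0.56 to -0.29) in the resident class, from 666 to 497 CPM, and 0.12 (0.02 to 0.21) in the Lyz1-high class, from 481 to 521 CPM. It drew attention because the only library of each diet moved one way in one class and the other way in the other. The difference was not tested, since each diet had 1 library. Neither value reached 1.5-fold, and the Lyz1-high value was -0.02 when gates were set after thinning to 800 UMIs.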

How the results depend on the processing

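No paired analysis was possible because each diet had 1 library, and no library could be left out. Of 2408 ratios under alternatives, 1612 stayed within the interval of the reported value, 792 left it and 4, among those past 1.5-fold, changed sign. Of the 69 values past 1.5-fold, 65 kept their sign and 36 stayed past it in every alternative, and of 138 under 1.5-fold, 65 changed sign in at least 1, *Ctsb* and *Lgmn* over all kept cells among them (up to 0.13 and 0.28). With gates set after thinning to 800 UMIs, HFD over CD of *Ctss* in Trem2+ cells was -0.12 and Timd4+ over other HFD cells of *Ctsa* was -0.70. With cells in 1 gate alone, Trem2+ over other CD cells of *Ctsb* was -0.073 and Timd4+ over other HFD cells of *Ctsz* was 0.88. These causes were not tested. The counts of members past the fold moved as follows. Over all kept cells, HFD over CD, the 1 higher became 2 with CPM scaled without mitochondrial, ribosomal, gate and abundant genes (reduced scaling), with at least 1000 genes or with at most 2500 genes, 3 at the lower fold tried and 0 at a fold of 2. The 0 lower became 1 (*Ctsa*) with at least 1000 genes, with at most 2500 genes, and without cells with stromal or endothelial markers, and 2 at the lower fold. Within gates, the 10 higher became 3 after thinning, 22 at the lower fold and 1 at 2, and the 0 lower became 5 with 2 UMIs of the gate gene and 20 of *Lyz1*, 1 with at most 2500 genes, in 1 gate alone or after thinning, and 8 at the lower fold. For gates over other cells in CD, the 10 higher became 6 with reduced scaling or with at most 2500 genes, 4 after thinning or with equal weight for each cell, 5 at a mitochondrial limit of 20%, 19 at the lower fold and 1 at 2, and the 10 lower became 20 in 1 gate alone, 17 at the lower fold and 6 at 2. In HFD the 11 higher became 19 in 1 gate alone, 24 at the lower fold and 2 at 2, and the 11 lower became 6 at 2. For resident over Lyz1-high cells, the 1 lower in CD became 2 with the stricter gates, with reduced scaling, centred on the median of all genes or at a limit of 20%, and the 2 lower in HFD became 1 with the stricter gates and 0 with at least 1000 genes or at a limit of 5%. Of 360 shares, 327 moved with thinning to 1500 UMIs or none. Detection rises with the UMIs kept per cell, so that count follows from depth and is no check of the shares. *Ctsk* had too few UMIs in either library to be compared.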

Other observations

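Barcodes left out for over 10 to 20% mitochondrial UMIs, 924 in CD and 797 in HFD, carried these transcripts in another mix, on CPM without mitochondrial genes. *Lgmn* was at 1433 CPM in them against 795 in kept cells of CD, a log2 ratio of 0.85 (0.77 to 0.93), and at 1197 against 703 in HFD, 0.77 (0.66 to 0.88). *Ctsb* was at 0.49 in CD and 0.45 in HFD. *Ctss* was lower, at -0.44 (-0.54 to -0.35) in CD and -0.83 (-0.95 to -0.70) in HFD, and *Ctsz* at -0.40 and -0.59. *Ctsd* was at 0.17 in CD and -0.06 in HFD, and at 726 CPM in CD and 1162 in HFD it was also higher in HFD among these barcodes. In the 1119 CD and 323 HFD barcodes over 20% the *Lgmn* ratio was 0.33 (0.21 to 0.44) and 0.12 (-0.14 to 0.38) and that of *Ctsb* 0.08 and -0.14, while *Ctss* was at -0.94 and -1.30.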
